A study of Mus musculus with 6 samples.

Results

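The cells described here are wound fibroblasts, and they were chosen by their own measured values. A cell was taken when its Col1a1, Col1a2, Col3a1, Dcn and Lum transcripts together made up 1% or more of its unique molecular identifiers (UMIs, 1 per captured transcript), when it held at least 5000 UMIs and when it held at most 1 UMI of Ptprc, the leukocyte antigen CD45. This gave 1261 fibroblasts of 11032 wound cells that passed the filters on cells (300 or more genes, fewer than 100000 UMIs, less than 10% of UMIs mitochondrial), out of 41068 cell barcodes deposited for the whole series. The study edited Ndrg2 in dendritic cells (DCs) and delivered them to wounds, and 3 of its 6 droplet libraries (10X Genomics) hold cells of wound tissue, 1 library per treatment. Splinted full-thickness excisional wounds of C57BL/6J wild-type mice, 6 weeks old, carried a pullulan-collagen hydrogel in every group, and the tissue was explanted on day 10. The hydrogel held Ndrg2-KO DCs in the first group, control DCs in the second and no cells (blank hydrogel) in the third. The labels call the control DCs untreated, whereas the methods describe control DCs that received non-targeting guides. The methods give 5 mice per group and both sexes, and the antibody hashtags in the feature table held 0 UMIs in all 3 libraries, so no cell could be traced to a mouse. With 1 library per treatment no difference below has a replicate check, no test between treatments was made, and every interval printed is an exact 95% interval that covers counting error alone.

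Fibroblasts build and remodel the extracellular matrix of skin. In a healing wound they enter from several dermal layers, divide, secrete collagens and chemokines, and in part become myofibroblasts, which carry smooth muscle actin and draw the wound edges together. Procollagen is hydroxylated, folded and cross-linked by a set of dedicated enzymes before and after it leaves the cell. Ngfr, the neurotrophin receptor p75NTR, is better known from nerves and Schwann cells.

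The control DC wound gave 460 fibroblasts of 1948 kept cells, or 23.6% (21.7 to 25.6). The Ndrg2-KO DC wound gave 470 of 5681, or 8.27% (7.57 to 9.02), and the blank hydrogel wound 331 of 3403, or 9.73% (8.75 to 10.8). These shares describe what the rule selected in each library. They move with how many leukocytes were captured and say nothing of the number of fibroblasts in the tissue. The rule left out 61 cells for Ptprc and 43 for low depth, 98 members had 1 to 2% of their UMIs in the rule genes, and 28 cells that met the other limits had 0.5 to 1%. The median fibroblast held 31049 UMIs in the control DC library, 26610 in the Ndrg2-KO DC library and 27995 in the blank library, and the summed fibroblasts held 15062745, 13235318 and 10063166 UMIs. No fibroblast barcode occurred in more than 1 of the fibroblast sets, and 1 was shared between the control DC and Ndrg2-KO DC libraries with a kept cell that was no fibroblast.

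The label was checked on a gene outside the rule. Pdgfra, a growth factor receptor of mesenchymal cells that the rule did not use, stood at 205, 231 and 229 CPM (counts per 1000000 summed UMIs) in the control DC, Ndrg2-KO DC and blank libraries, against 0.375 to 0.857 CPM in leukocytes of the same libraries (cells with at least 2 Ptprc UMIs, at least 5000 UMIs and under 1% of the rule genes). Markers of other cells were present too: after each cell was drawn down to 5000 UMIs, 0.652%, 2.13% and 1.51% of the fibroblasts held 3 or more of 8 macrophage markers, and 0.435%, 2.77% and 1.51% held 3 or more of 8 neutrophil markers. The summed neutrophil list stood at 78.2, 338 and 188 CPM in that order and the erythroid list at 177, 1378 and 983 CPM, and their part in the results was not tested unless a value without such cells is given. Leaving out every fibroblast with 3 or more markers of another cell type removed 11, 34 and 16 cells. Xist, expressed from an inactive X chromosome, was read at 430 to 512 CPM in the 3 fibroblast sums, while the 4 Y-linked genes in the lists held 1 UMI in all. The fibroblasts of all 3 libraries thus read as cells of female mice, whereas the methods name both sexes for the study.

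Clustering the 1261 fibroblasts without aligning the libraries gave 8 clusters, which are described by their leading genes, with no test, because the same genes formed them. Cluster 0 (294 cells) was led by Penk, Csf3 (the neutrophil growth factor G-CSF), Inhba (a subunit of activin) and Serpinb2. Cluster 1 (233 cells) was led by Smpd3, a sphingomyelinase, at 15.9 times its level in the other fibroblasts, by the chemokine Cxcl13 and by Pcolce2, an enhancer of procollagen cleavage. Cluster 2 (176 cells) was led by Ccnb1ip1, Clec2d and the growth factor Ptn, and 48.9% of its cells held 3 or more of 8 chemokine genes, against 84.8% to 100% in the other clusters. Cluster 4 (145 cells) had the transcription factors Klf2, Atf3 and Jun among its leading genes. Cluster 6 (92 cells) was led by the leptin receptor Lepr and by Myoc, and by matrix genes such as Cilp, Ltbp4 and Thbs4. These groups were drawn from all 3 libraries, although unevenly.

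Clusters 3, 5 and 7 stood apart in other ways. Cluster 3 (164 cells) joined cell cycle genes (Top2a at 125 times and Mki67 at 82.8 times their level elsewhere) with Acta2 at 22.5 times and Crabp1 at 35.8 times; its cells were the deepest, with a median of 43195 UMIs. Cluster 5 held 132 cells, of which 131 came from the Ndrg2-KO DC library and 1 from the control DC library, and was led by Pgr (28.5 times), Ptpn5 (18.2 times) and Ngfr (17.6 times). A cluster filled by 1 library may be that library rather than a cell state, and with 1 library per treatment these cannot be told apart. Cluster 7 held 25 cells, 16 of them from the Ndrg2-KO DC library, and leukocyte genes were among its 10 leading genes (Ccl4, Cybb, F13a1, Tnf, S100a8 and C1qa), so it is given no fibroblast state. Within the Ndrg2-KO DC library, cluster 5 differed from the remaining fibroblasts in a way that resembled cluster 1 of the other libraries: across genes, its log2 contrast correlated with that of cluster 1 at r = 0.71 in the control DC library (5552 genes) and r = 0.76 in the blank library (4891 genes), whereas the other clusters gave r between -0.58 and 0.39. Genes are not independent replicates, and these values are a description. Cluster 1 held 117 cells of the control DC library, 107 of the blank library and 9 of the Ndrg2-KO DC library.

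**Figure D1:**
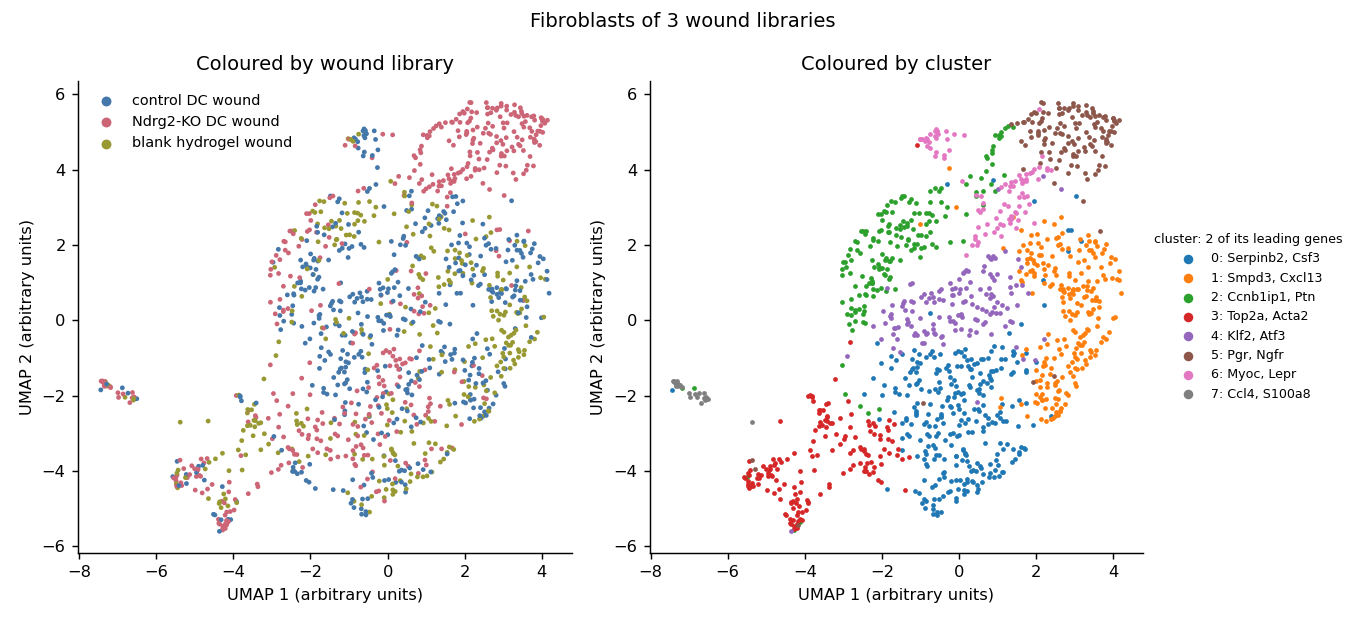
Each point is 1 of the 1261 fibroblasts on a 2-dimensional UMAP map (arbitrary units), coloured by wound library on the left and by cluster on the right. The Ndrg2-KO DC cells of cluster 5 (131 of its 132 cells) occupy the upper right of the map, where the other libraries are nearly absent, and the 25 cells of cluster 7 lie apart on the left.

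Contractile genes were highest in the blank hydrogel wound and lowest in the control DC wound. Acta2, the smooth muscle actin that defines myofibroblasts, stood at 50.1 CPM (46.5 to 53.8) in the control DC fibroblasts, 101 CPM (95.6 to 106) in the Ndrg2-KO DC fibroblasts and 251 CPM (241 to 261) in the blank fibroblasts. Tagln, an actin-binding protein of smooth muscle, followed with 40.6, 49.8 and 148 CPM, and Tpm2, a tropomyosin, with 47.7, 93.9 and 151 CPM. All 6 contractile genes that reached 200 UMIs in a pair of libraries (Acta2, Tagln, Myl9, Tpm1, Tpm2 and Cnn2) had the same order, control DC below Ndrg2-KO DC below blank. Against the control DC wound, 5 of the 6 were 2-fold or more higher in the blank wound (median log2 ratio 1.72, beside 0.08 for all genes), a call that 0.815% of the 7733 genes tested reached, and 2 of the 6, Acta2 and Myl9, were 2-fold or more higher in the Ndrg2-KO DC wound (median 0.79, beside 0.09), a call that 2.13% of the 8067 genes tested reached. The levels rested on few cells: 5 cells held 69.0% of the Acta2 UMIs of the control DC library, 37.8% of those of the Ndrg2-KO DC library and 46.8% of those of the blank library.

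Counted per cell at 5000 UMIs, 27 of 460 control DC fibroblasts (5.87%, 3.90 to 8.43), 52 of 470 Ndrg2-KO DC fibroblasts (11.1%, 8.37 to 14.3) and 49 of 331 blank fibroblasts (14.8%, 11.2 to 19.1) held 3 or more of the 8 contractile genes. Leukocytes of the same libraries gave 0.0839 to 0.171%. Without the drawing down the shares were 31.3%, 35.1% and 35.3%. Cluster 5 held no contractile cell, and without it the Ndrg2-KO DC share was 15.3%, above that of the blank library, so that the order of those libraries turned. That cut took cells almost only from the Ndrg2-KO DC library. Cluster 1, which cluster 5 resembled, had 1 contractile cell of 233 and was kept, with 107 cells of the blank library. The turned order therefore does not compare like sets of cells. Cells that held 3 or more of 8 mural (pericyte and smooth muscle) markers numbered 3 in the control DC, 1 in the Ndrg2-KO DC and 1 in the blank library, and all 5 lay in cluster 3. The mural gene Rgs5 stood at 23.7, 8.08 and 3.18 CPM, and 5 cells held 99.4% to 100% of its UMIs in each library. Without the cells that held 3 or more markers of another cell type, the log2 ratio of Acta2 against the control DC wound went from 1.01 to 1.98 for Ndrg2-KO DCs and from 2.33 to 3.29 for the blank hydrogel. With the rule set at 2% of UMIs it was 0.73 for Ndrg2-KO DCs, under 2-fold.

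Contractile genes are classic targets of serum response factor, which binds the CArG box, a run of 6 A or T bases flanked by paired C and paired G. The RefSeq promoter table (GRCm38.p6, 250 bases before to 50 after the gene start) held 6 of the 8 contractile genes (not Tagln and Actg2), and the box was found in the windows of 2 of the 6, Myl9 and Cnn2, beside 1.63% of all 32851 windows. The box as searched is the same motif on both strands. The matches are shown as the letters that were found. Acta2, Tpm1 and Tpm2 had the same order across the wounds with no exact match in their windows, and the levels of the matched genes were 9.03, 21.9 and 31.1 CPM for Myl9 and 28.2, 40.4 and 66.1 CPM for Cnn2. The search asked for 6 A or T letters, so a box with another letter in that run would be missed. Whether these windows hold such boxes was not tested. Capitals mark the box, which begins 161 bases before the gene start in Myl9 (chr2:156775293-156775322, plus strand) and 56 bases before it in Cnn2 (chr10:79988534-79988563, plus strand). A match is a description of these letters and not a binding site shown here.
Myl9: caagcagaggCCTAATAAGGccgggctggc
Cnn2: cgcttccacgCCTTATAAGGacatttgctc

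Spp1, Crabp1, Tnc and Postn, which come from different lists, are given next to the contractile genes. Spp1, which encodes the secreted matrix protein osteopontin, stood at 11.9 CPM in the control DC fibroblasts, 177 CPM in the Ndrg2-KO DC fibroblasts and 334 CPM in the blank fibroblasts, and leukocytes of the same libraries held 1591 to 3642 CPM of it. In contractile cells alone Spp1 was 19.7 CPM in the control DC library, 534 CPM in the Ndrg2-KO DC library and 1202 CPM in the blank library. Crabp1, a retinoic acid binding protein, was 11.02, 11.3 and 94.7 CPM and thus stood out in the blank wound, where 5 cells held 46.2% of its UMIs. Tnc, the matrix glycoprotein tenascin-C, was 594, 284 and 682 CPM, lowest in the Ndrg2-KO DC fibroblasts. Postn, encoding periostin, was 3751, 1675 and 1958 CPM, highest in the control DC fibroblasts, and in contractile cells it was 8185, 2056 and 2076 CPM. Leaving out cluster 5 brought the log2 ratios against control DCs in the Ndrg2-KO DC wound under 2-fold, from -1.16 to -0.93 for Postn and from -1.06 to -0.63 for Tnc. Of the 8 wound matrix genes, 3 (Postn, Tnc and Aspn, encoding asporin, at 830, 396 and 398 CPM) were 2-fold or more lower in the Ndrg2-KO DC than in the control DC fibroblasts, beside 0.855% of all genes tested, and 0 of them without cluster 5. That cut took 131 Ndrg2-KO DC cells and 1 control DC cell. Cluster 1, where 60.1% of cells held the wound matrix list beside 68.2% in cluster 5, was kept, with 117 control DC cells. Whether the falls lie in cluster 5 alone was not tested. In the blank against the control DC fibroblasts 1 of the 8, Aspn, was 2-fold or more lower, beside 0.427% of all genes, and at -0.91 it was under 2-fold when the CPM of single cells were averaged in place of summed.

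**Figure D2:**
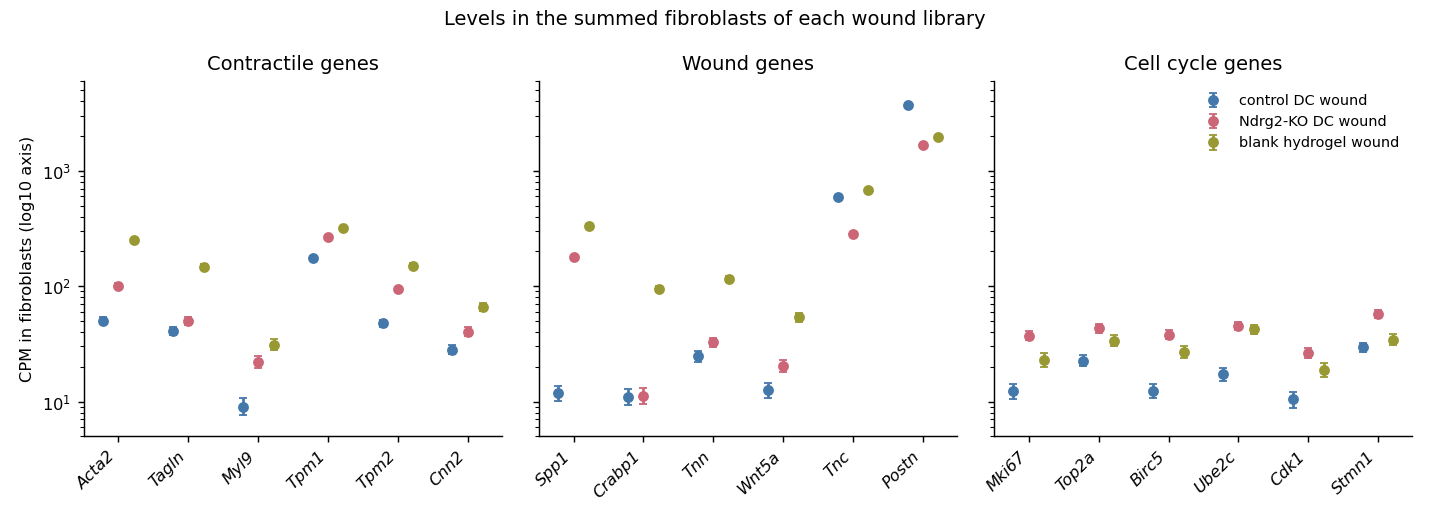
Levels in CPM (log10 axis) of 18 genes in the summed fibroblasts of each wound library, with exact 95% Poisson intervals of counting error, which are mostly smaller than the points. The 6 contractile genes run from control DC to Ndrg2-KO DC to blank hydrogel, Postn is highest in the control DC fibroblasts, and all 6 cell cycle genes are lowest there.

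Cell cycle genes were lowest in the control DC fibroblasts. Mki67 stood at 12.3, 37.1 and 23.0 CPM in the control DC, Ndrg2-KO DC and blank libraries, Birc5 (survivin, active in cell division) at 12.4, 37.9 and 26.8 CPM and Ube2c at 17.2, 45.2 and 42.1 CPM. All 8 genes of the cycling list were higher in the Ndrg2-KO DC than in the control DC fibroblasts, 5 of them 2-fold or more, beside 2.13% of all genes (median log2 ratio 1.37, beside 0.09). In the blank fibroblasts 8 of 8 were higher than in the control DC fibroblasts and 3 of 8 were 2-fold or more higher, beside 0.815% of all genes (median 0.88, beside 0.08). Those 3 calls were lost with the rule set at 2% of UMIs, where the log2 ratios were 0.87 for Birc5, 0.89 for Pclaf and 0.94 for Ube2c. At 5000 UMIs, 3.48% (2.001 to 5.59), 8.72% (6.33 to 11.6) and 6.34% (3.97 to 9.53) of the fibroblasts held 3 or more of the 8 genes, beside 1.54 to 2.02% of the leukocytes.

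Dividing and contractile cells overlapped. In the Ndrg2-KO DC library 17 cells were both, 32.7% of its 52 contractile and 41.5% of its 41 cycling cells. In the blank library 11 cells were both, 22.4% of the contractile and 52.4% of the cycling cells. The control DC library had 1 such cell, 3.70% of its 27 contractile and 6.25% of its 16 cycling cells.

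The tested genes of the interferon list were also lowest in the control DC fibroblasts. Ifi27l2a stood at 413 CPM in the control DC, 1286 CPM in the Ndrg2-KO DC and 656 CPM in the blank library, and Isg15, an interferon-induced ubiquitin-like protein, at 60.2, 109 and 98.6 CPM. The 7 interferon genes with enough UMIs were all higher in the Ndrg2-KO DC than in the control DC fibroblasts, and 1 of them, Ifi27l2a, was 2-fold or more higher, beside 2.13% of all genes (median log2 ratio 0.74, beside 0.09). In the blank against the control DC fibroblasts 8 of 8 were higher and 2, Ifit3 (log2 ratio 1.35) and Rsad2 (1.11), were 2-fold or more higher, beside 0.815% of all genes (median 0.71, beside 0.08), and both came under 2-fold without the highest doublet scores (0.84 and 0.52). Cxcl9, an interferon-induced chemokine outside the list, ran the other way and was highest in the control DC fibroblasts, at 115, 37.1 and 45.5 CPM. The share of cells with 3 or more of 8 interferon genes was 26.3% (22.3 to 30.6), 44.0% (39.5 to 48.7) and 38.1% (32.8 to 43.5). Leukocytes, which make these transcripts themselves, gave 33.1%, 40.2% and 35.3% in the same libraries, so the fibroblast shares lay close to those of the leukocytes, and the part of free RNA in them was not tested.

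Genes of hypoxia and glycolysis separated the Ndrg2-KO DC library less. Ldha, lactate dehydrogenase, was 278, 518 and 391 CPM and Pgk1, phosphoglycerate kinase, 156, 264 and 207 CPM; the cell shares were 19.6% (16.0 to 23.5), 29.6% (25.5 to 33.9) and 22.1% (17.7 to 26.9), below the 35.7% to 56.2% of leukocytes. None of the 6 genes tested reached 2-fold in the Ndrg2-KO DC against the control DC fibroblasts, beside 2.13% of all genes higher and 0.855% lower. The medians were 0.52 for the list and 0.09 for all genes. Adventitial markers (Pi16, Dpp4, Cd34 and others) were held by 92.4%, 91.3% and 87.6% of the fibroblasts and wound matrix markers by 81.1%, 86.2% and 85.2%. Both lists differed between clusters: the adventitial list was held by 57.9% of cluster 3 and by 80 to 100% of the other clusters. The wound matrix list was held by 60.1% of cluster 1, 68.2% of cluster 5 and 71.7% of cluster 6. It was held by 87.5% and 88% of clusters 2 and 7 and by 96.9%, 98.2% and 97.9% of clusters 0, 3 and 4. Pi16 alone stood at 1236, 1218 and 2231 CPM, highest in the blank wound. The papillary list was met by 2 cells per library and the dermal papilla list by 0 of 460, 0 of 470 and 0 of 331 cells. A count of 0 allows 3 cells of the total, a share of up to 0.652%, 0.638% and 0.906%, which is a limit of another kind than the exact intervals.

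**Figure D3:**
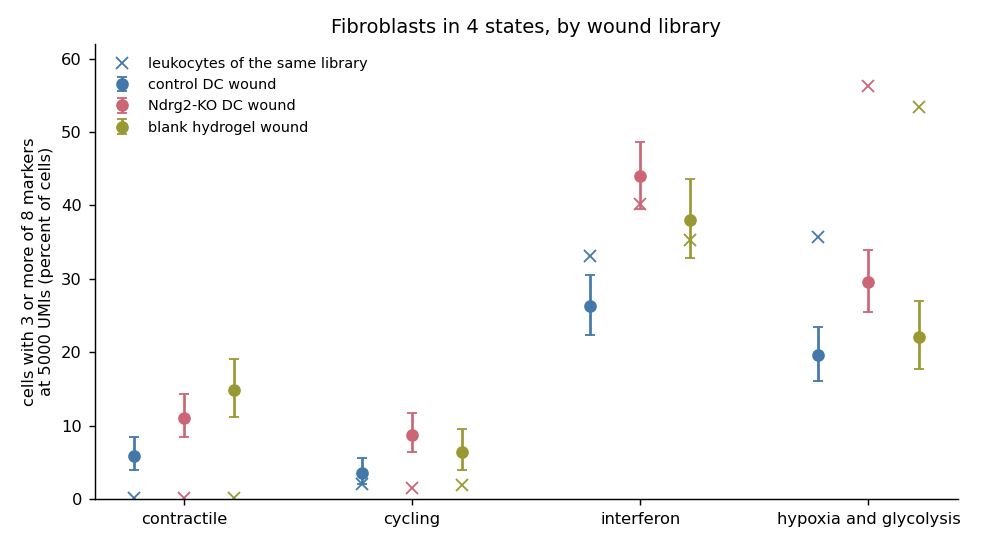
Percent of fibroblasts that held at least 3 of 8 genes of a list after each cell was drawn to 5000 UMIs, with exact 95% Clopper-Pearson intervals of counting error; crosses give the same share in leukocytes of the library. Contractile shares are 5.87%, 11.1% and 14.8% with crosses near 0, while the interferon crosses lie among the fibroblast values.

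No fibrillar collagen gene reached 2-fold between the Ndrg2-KO DC and the control DC fibroblasts. Col1a1, the main chain of type I collagen, stood at 30252 CPM in the control DC, 21580 CPM in the Ndrg2-KO DC and 22474 CPM in the blank fibroblasts, and Col3a1, the type III chain of early granulation tissue, at 30639, 27227 and 24126 CPM. Both are rule genes, so their levels describe the selection. Of the 5 fibrillar collagen genes tested that the rule did not use (Col5a1, Col5a2, Col5a3, Col24a1 and Col27a1), 4 were lower in the Ndrg2-KO DC than in the control DC fibroblasts (median log2 ratio -0.26, beside 0.09 for all genes). In the whole comparison 172 of 8067 genes were 2-fold or more higher (2.13%) and 69 were 2-fold or more lower (0.855%). Scaling by median-ratio size factors in place of totals gave 134 higher and 89 lower. Against the control DC wound, the blank wound had 63 of 7733 genes higher (0.815%) and 33 lower (0.427%). The Ndrg2-KO DC and blank comparisons share the control DC library, so they are set side by side and not counted together.

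Genes of collagen processing were mostly higher in the Ndrg2-KO DC wound. They include the prolyl and lysyl hydroxylases and the lysyl oxidases. Of 20 such genes, 19 were higher in the Ndrg2-KO DC than in the control DC fibroblasts (median log2 ratio 0.29, beside 0.09 for all genes), and 1, Plod2, was 2-fold or more higher, beside 2.13% of all genes. Against the blank wound the Ndrg2-KO DC fibroblasts were higher in 18 of 20 (median 0.26, beside 0.03). In the blank against the control DC wound the median was 0.04, beside 0.08 for all genes, and 0 of 20 passed 2-fold, beside 0.815% of all genes higher and 0.427% lower. Genes of folding in the endoplasmic reticulum were mostly higher in both wounds than in the control DC wound, 15 of 18 with Ndrg2-KO DCs (median 0.34, beside 0.09) and 17 of 18 with the blank hydrogel (median 0.18, beside 0.08). In both comparisons 0 passed 2-fold, beside 2.13% of all genes higher with Ndrg2-KO DCs and 0.815% with the blank hydrogel. The larger differences with Ndrg2-KO DCs included Ssr4, a subunit of the translocon-associated complex, at 272, 493 and 278 CPM and Sec61b, a channel subunit of the same membrane, at 365, 641 and 449 CPM in the control DC, Ndrg2-KO DC and blank libraries. Complement genes were mostly lower in the Ndrg2-KO DC than in the control DC wound. C3 was 3078, 2447 and 3164 CPM and C4b 1119, 783 and 1163 CPM. In the Ndrg2-KO DC fibroblasts 6 of 7 tested complement genes were lower than in the control DC fibroblasts (median -0.33, beside 0.09 for all genes). Of them 0 passed 2-fold, beside 0.855% of all genes that were 2-fold or more lower.

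Plod2, Ppib and Lgals1 were higher in the Ndrg2-KO DC than in both other libraries in each of the 7 clusters with 3 or more cells of every library, although over all fibroblasts Ppib and Lgals1 were under 2-fold. Few cells stood behind some of these clusters. Cluster 7, given no fibroblast state, held 3 control DC and 6 blank cells, and cluster 1 held 9 Ndrg2-KO DC cells. Plod2 encodes lysyl hydroxylase 2, which prepares collagen telopeptides for cross-linking, and stood at 184 CPM (177 to 191) in the control DC, 427 CPM (416 to 439) in the Ndrg2-KO DC and 185 CPM (176 to 193) in the blank fibroblasts. Its log2 ratio was 1.22 (1.15 to 1.29) for Ndrg2-KO against control DCs and 0.01 (-0.08 to 0.09) for the blank hydrogel against control DCs. The difference was present inside the clusters: Plod2 was 216, 374 and 248 CPM in cluster 0, 170, 367 and 156 CPM in cluster 2, and 417, 548 and 271 CPM in cluster 3, in the order control DC, Ndrg2-KO DC and blank. It was also present among cells that were neither contractile nor cycling, at 168, 400 and 163 CPM. Its share of cells with a UMI at 5000 UMIs was 41.7%, 76.2% and 45.6%, and leukocytes held 1.30 to 3.38 CPM. Ppib, a peptidyl-prolyl isomerase (cyclophilin B) that assists collagen folding, was 651, 1033 and 700 CPM, 0.67 higher on the log2 scale than in the control DC wound and under 2-fold. Lgals1, encoding galectin-1, was 1459, 2917 and 1894 CPM, a log2 ratio of 0.999 (0.97 to 1.02) that fell just short of the 2-fold limit. Under the alternatives that ratio ran from 0.91 with median-ratio scaling to 1.18 without cluster 5, on both sides of the limit. Lgals1 was higher in contractile cells, at 2990, 4718 and 4126 CPM, and in cycling cells, at 2809, 4588 and 3770 CPM, against 1256, 2420 and 1155 CPM in cells neither contractile nor cycling.

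**Figure D4:**
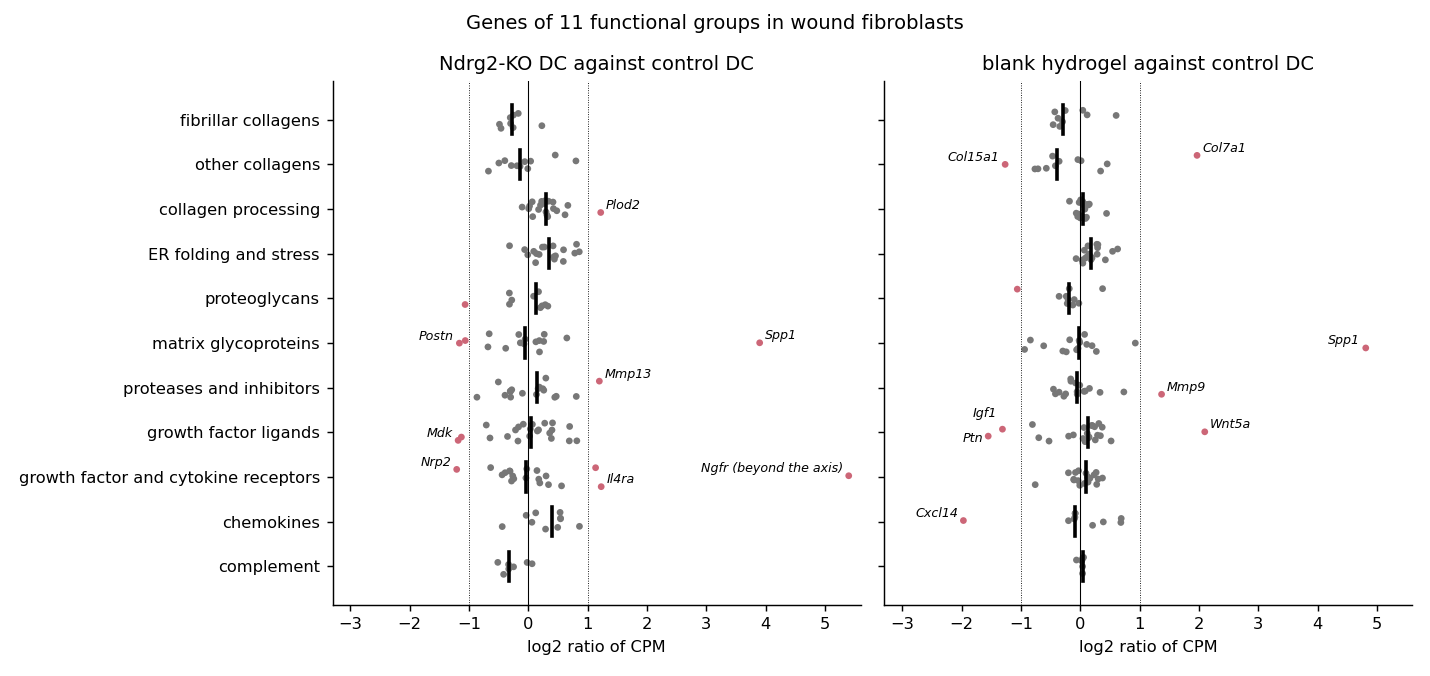
Log2 ratio of CPM for the tested genes of 11 functional groups, Ndrg2-KO DC against control DC fibroblasts on the left and blank hydrogel against control DC on the right; 1 point is 1 gene, bars are group medians, dotted lines mark 2-fold and red points lie past it (Ngfr, at 9.70, is drawn at the edge). Collagen processing and folding genes lie mostly right of 0 on the left, with Plod2 past 2-fold, while the fibrillar collagens, which include 3 genes of the selection rule, have medians left of 0 in both panels.

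Ngfr was the gene with the largest ratio between the Ndrg2-KO DC and control DC fibroblasts. It lies on chr11:95568818-95587735 (minus strand, GENCODE M21, GRCm38) and was read with 1 UMI in the control DC library, 732 in the Ndrg2-KO DC library and 14 in the blank library, or 0.0664, 55.3 and 1.39 CPM. The log2 ratio of Ndrg2-KO against control DCs was 9.70 with a counting interval of 7.22 to 15.01, and against the blank hydrogel it was 5.31 (4.56 to 6.19). In the Ndrg2-KO DC library 162 of 470 fibroblasts held a UMI, against 1 of 460 and 4 of 331, and the 5 cells with most held 14.5% of its UMIs. Leukocytes of the 3 libraries held 0.0999 to 0.501 CPM.

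The Ngfr signal was not spread evenly over the Ndrg2-KO DC fibroblasts. In that library it stood at 137 CPM in cluster 5, 112 CPM in cluster 6, 39.2 CPM in cluster 2, 24.1 CPM in cluster 3, 5.66 CPM in cluster 4 and 0.700 CPM in cluster 0. Cluster 6 existed in all libraries, and there Ngfr was 0.997 CPM in its 43 control DC cells and 30.8 CPM in its 14 blank cells. Contractile cells of the Ndrg2-KO DC library held 13.2 CPM (8.81 to 18.9), cycling cells 43.5 CPM (34.3 to 54.4) and the remaining cells 63.6 CPM (58.8 to 68.7). Leaving out cluster 5 lowered the log2 ratio against control DCs to 8.61. The 10 genes whose log-normalized level correlated most with Ngfr over the 470 cells, among 5817 genes, began with Tgm2 (transglutaminase 2, a protein cross-linking enzyme; r = 0.63), Col4a1 (r = 0.62) and Col4a2 (r = 0.58), both chains of basement membrane collagen, and included Csf1 (r = 0.55), Cxcl13 (r = 0.53) and Ntrk2 (r = 0.52), the receptor TrkB. The points share 1 library and its range of depths.

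Pgr, Ptpn5 and Greb1 followed Ngfr among the genes with the largest ratio against control DCs. Pgr, the progesterone receptor, was read at 1.13, 40.1 and 0.994 CPM in the control DC, Ndrg2-KO DC and blank libraries (17, 531 and 10 UMIs), Ptpn5, a tyrosine phosphatase, at 0.797, 42.7 and 0.696 CPM, and Greb1, a growth regulator, at 1.33, 25.7 and 1.69 CPM. All 3 were low in the control DC and the blank wound alike. Without cluster 5 the log2 ratios against control DCs were 3.41 in place of 5.15 for Pgr, 4.59 in place of 5.74 for Ptpn5 and 3.47 in place of 4.27 for Greb1. Pgr and Greb1 are textbook targets of the oestrogen receptor, and Esr1, which encodes it and is named here after its values were seen, was 33.7, 62.6 and 38.2 CPM. No list of targets of the receptor was counted, and its part in these levels was not tested. At 5000 UMIs 80 Ndrg2-KO DC fibroblasts held Ngfr, and 36.3% of them held Pgr against 11.5% of the cells without Ngfr; for Ptpn5 the shares were 32.5% and 14.6%. Acta2 was held by 2.50% of the Ngfr cells and 12.8% of the others. Greb1 was highest in cluster 6 (73.6 CPM) and Pgr in cluster 5 (119 CPM) of the Ndrg2-KO DC library. Tgm2 was 25.8, 124 and 28.8 CPM, and without cluster 5 its log2 ratio was 1.15 in place of 2.26 against control DCs and 0.97 in place of 2.10 against the blank hydrogel.

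**Figure D5:**
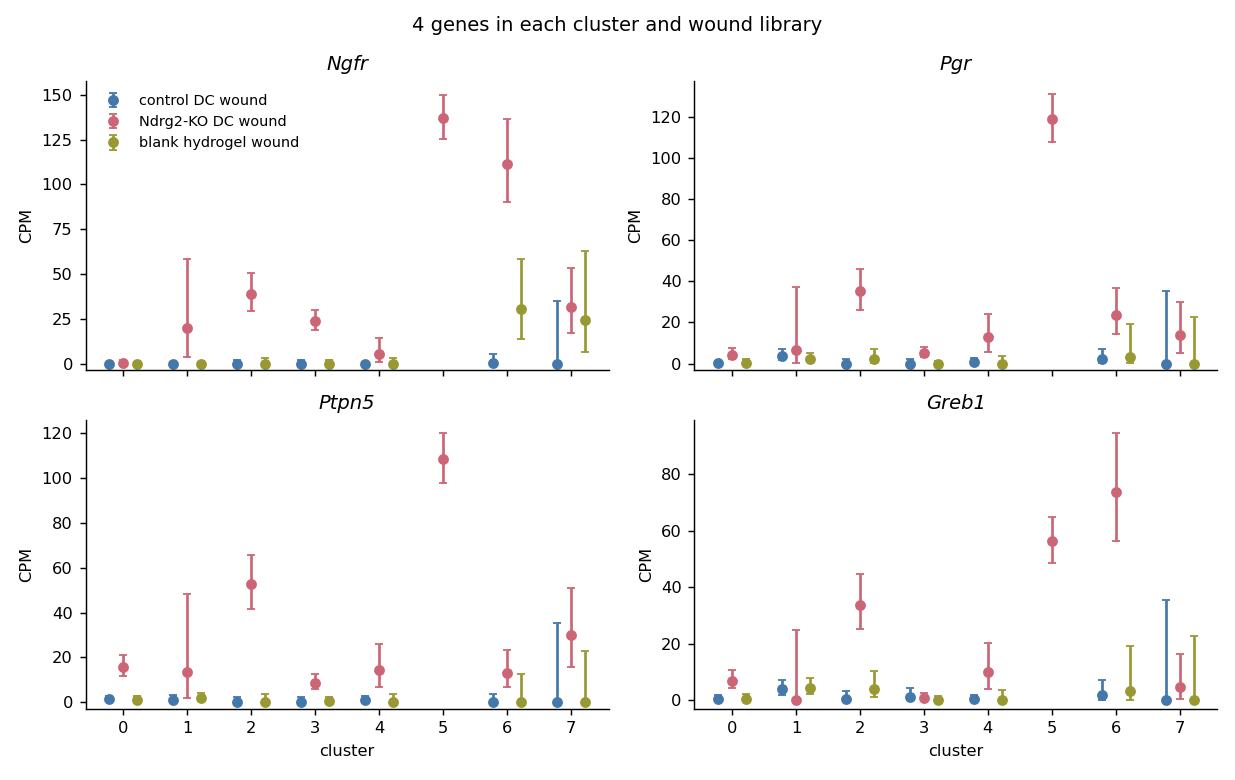
Levels in CPM of Ngfr, Pgr, Ptpn5 and Greb1 in each of the 8 clusters, split by wound library, with exact 95% Poisson intervals of counting error; sets of fewer than 3 cells are not drawn. The Ndrg2-KO DC points reach 137 CPM for Ngfr and 119 CPM for Pgr in cluster 5, and Ngfr and Greb1 are also raised in cluster 6, where the control DC points lie near 0.

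The 10 genes that fell furthest below the control DC fibroblasts in the Ndrg2-KO DC fibroblasts included matrix genes and a target of the glucocorticoid receptor. Hmcn1, encoding the basement membrane protein hemicentin-1, stood at 76.4, 9.29 and 20.1 CPM in the control DC, Ndrg2-KO DC and blank libraries, a log2 ratio of -3.04 (-3.32 to -2.77) against control DCs. Galnt15, a glycosyltransferase, was 31.5, 4.53 and 19.0 CPM, and Col6a5, a type VI collagen chain, 40.0, 8.99 and 27.7 CPM. Ctla2a, a cysteine protease inhibitor, was 166, 26.4 and 135 CPM, and within cluster 2, where the control DC level was highest, it was 458, 48.6 and 211 CPM. Tsc22d3 (GILZ), the glucocorticoid target, was 39.8, 10.96 and 37.7 CPM, and its log2 ratio lay between -1.98 and -1.79 under every alternative tried. Hmcn1 was thus low in the blank wound as well (log2 ratio -1.93 against control DCs), whereas Ctla2a and Tsc22d3 stood near the control DC level there (-0.30 and -0.08). Lcn2, an iron-binding defence protein, was 589, 162 and 181 CPM, and in the control DC library it reached 2168 CPM in the 32 cells of cluster 3.

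Some of the largest ratios belonged to leukocyte genes. Tnf was read at 1.73, 30.6 and 4.77 CPM, Ccl4 at 5.31, 77.7 and 18.7 CPM and Ccl3 at 3.72, 36.1 and 13.5 CPM in the control DC, Ndrg2-KO DC and blank libraries. In the Ndrg2-KO DC library 5 cells held 71.6% of the Tnf UMIs and 69.4% of the Ccl4 UMIs, and in its 16 cells of cluster 7 Ccl4 stood at 1885 CPM against 7.13 to 18.4 CPM in the other clusters. Without the cells that held markers of another cell type, the log2 ratio of Ccl4 against control DCs went from 3.87 to 2.51 and that of Tnf from 4.15 to 4.01. All 4 neutrophil genes tested (S100a8, S100a9, Il1b and G0s2) were 2-fold or more higher in the Ndrg2-KO DC than in the control DC fibroblasts, beside 2.13% of all genes. Without the cells that held markers of another cell type, G0s2 went from 1.70 to 0.79 and no longer reached 200 UMIs, and the other 3 stayed past 2-fold. Leukocytes of the Ndrg2-KO DC library also held the most S100a8 (8167 CPM against 3358 in the control DC and 5811 CPM in the blank leukocytes). Reg3g, a secreted lectin, was 30.6 CPM in the Ndrg2-KO DC library with 5 cells holding 99.01% of its UMIs.

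Of 23 tested genes of the growth factor ligand list, compared between the blank hydrogel and the control DC fibroblasts, 1 (Wnt5a) was 2-fold or more higher and 2 (Igf1 and Ptn) were 2-fold or more lower, beside 0.815% and 0.427% of all genes (median log2 ratio 0.14, beside 0.08). The list does not hold every ligand: Ereg, the ligand epiregulin, was outside it and was higher by 1.42 on the log2 scale, at 98.8, 61.7 and 265 CPM in the control DC, Ndrg2-KO DC and blank libraries. Wnt5a, a secreted Wnt ligand, stood at 12.5, 20.3 and 53.8 CPM in that order. Among matrix genes, Tnn, the matrix protein tenascin-N, was 24.6, 32.6 and 116 CPM, and Col7a1, the anchoring fibril collagen, 8.63, 2.27 and 33.8 CPM, lowest in the Ndrg2-KO DC fibroblasts. Igf1, insulin-like growth factor 1, was 341 CPM (331 to 350), 217 CPM (210 to 226) and 137 CPM (130 to 145), in descending order. Ptn, pleiotrophin, was 222, 101 and 75.6 CPM, and Mdk, the related midkine, 117, 51.3 and 66.7 CPM. Cxcl14, a chemokine of resting skin, was 249, 184 and 63.7 CPM, with 49.5% of the control DC UMIs in 5 cells. Of the 33 genes lower in the blank wound, Lepr (14.4, 6.57 and 3.58 CPM), C1qtnf3 (167, 67.1 and 41.8 CPM) and Saa1 (47.0, 14.9 and 6.66 CPM) were among the 10 with the largest fall.

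Between the Ndrg2-KO DC and blank wounds 84 of 7634 genes were 2-fold or more higher (1.10%) and 61 lower (0.799%). After Ptpn5, Pgr and Ngfr the higher genes included Celf4, an RNA-binding protein, at 25.6 against 4.17 CPM (log2 ratio 2.62, and 0.92 without cluster 5), and Mest at 23.0 against 5.07 CPM. The lower genes were led by Col7a1 and Crabp1 and included Ereg at 61.7 against 265 CPM, and Smpd3 at 29.0 against 124 CPM. Acta2 was lower by 1.31 (1.22 to 1.41) and Tagln by 1.57 (1.43 to 1.70) on the log2 scale. Averaging the CPM of single cells in place of summing them left Acta2 lower by 0.86, and without cells that held a Ptprc UMI Tagln was lower by 0.97.

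Of 22 tested genes of the growth factor ligand list, compared between the Ndrg2-KO DC and control DC fibroblasts, 0 were 2-fold or more higher and 2, Ptn and Mdk, were 2-fold or more lower, beside 2.13% and 0.855% of all genes. Outside the list, Csf1, the macrophage growth factor M-CSF, was 2-fold or more higher, at 119, 258 and 149 CPM (log2 ratio 1.11, and 0.45 without cluster 5). Vegfa, the main angiogenic factor, was 145, 161 and 159 CPM and Vegfd 121, 214 and 154 CPM. Among 20 tested genes of the receptor list, 3 were 2-fold or more higher, beside 2.13% of all genes: Ngfr, Il4ra (the interleukin-4 receptor chain; 49.6, 116 and 59.7 CPM) and Kdr (a VEGF receptor; 11.9, 26.1 and 13.0 CPM). Of that list 1, Nrp2, was 2-fold or more lower, beside 0.855% of all genes, at 20.2, 8.76 and 21.3 CPM, and Lepr, outside the list, was lower by 1.13 on the log2 scale (by 0.71 without cluster 5). Kdr, which 171 of the 470 Ndrg2-KO DC fibroblasts held, is also an endothelial marker. The 8 genes of the endothelial list, Kdr among them, summed to 61.7, 75.9 and 50.9 CPM with 0, 1 and 2 of them at 0, Pecam1 stood at 9.43, 5.36 and 5.86 CPM and Cdh5 at 2.26, 2.64 and 0 CPM, and their part in the Kdr level was not tested. Without cluster 5, a cut almost only of Ndrg2-KO DC cells, the log2 ratios against control DCs came under 2-fold for Kdr (0.96), Mdk (-0.85), Ptn (-0.95) and Nrp2 (-0.87). Of 10 tested genes of the chemokine list 8 were higher in the Ndrg2-KO DC fibroblasts than in the control DC fibroblasts (median log2 ratio 0.39, beside 0.09) and 0 passed 2-fold, with Ccl2, a chemokine that draws monocytes, at 2723, 3965 and 2565 CPM and Cxcl1 at 5266, 5131 and 4591 CPM. Chemokines outside the list did pass 2-fold in that comparison, Ccl4 (log2 ratio 3.87) and Ccl3 (3.28) higher and Cxcl9 (-1.64) and Cxcl13 (-1.57) lower. The Cxcl13 ratio was -0.69 with the rule set at 2% of UMIs and -2.61 without cluster 5. The summed chemokine list stood at 13917, 16536 and 13839 CPM in fibroblasts and at 15045, 27749 and 14341 CPM in leukocytes of the same libraries, and the part of free RNA was not tested. Snai2, a transcription factor of mesenchymal cells, was 6.44, 18.4 and 8.74 CPM and was the 1 of 12 tested factors of that list 2-fold or more higher, beside 2.13% of all genes.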

How the data were processed

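The deposited files hold whole-number UMI counts for each gene in each barcode. Per the file headers the authors ran Cell Ranger 6.0.0 on the wound libraries, whereas the methods name an earlier version of it, with mm10 as genome. The submitters' processing notes also name mm9 and Seurat 3.1.1. The deposited counts were not normalized. The members and gene lists were chosen with earlier results of these data known. UMIs were summed over the fibroblasts of a library and scaled to 1000000 (CPM); libraries were compared by log2 CPM ratios with conditional binomial intervals, where a gene reached 200 UMIs over both sums, and 2-fold means an absolute log2 ratio of 1. CPM intervals are Poisson and shares Clopper-Pearson. Wound fibroblast sums held 10063166 to 15062745 UMIs. For state shares each cell was drawn to 5000 UMIs without replacement. Clusters used log-normalization to 10000 UMIs, 2000 variable genes, 15 components, 15 neighbours and Louvain resolution 0.5 in Seurat 5.3.0 (R 4.3.3). Scrublet (scanpy 1.11.5) marked 0 to 14 cells per library at its own threshold, so doublets were kept, and an alternative removed the top 6% of scores. Named genes were those of the lists, Ngfr, Lgals1, Plod2 and Ppib, the 10 largest rises and falls per comparison without mitochondrial, ribosomal protein and haemoglobin genes, the 10 leading genes per cluster at 100 CPM or more, and the 10 genes most correlated with Ngfr; Esr1 and the genes under other observations were added after their values were seen. Alternatives varied the rule, scaling, gene minimum, depth, markers and clustering. Of these, 2 were chosen after seeing the data (without cells with markers of other types, and without cluster 5). Leaving out cluster 5 took 131 Ndrg2-KO DC cells, 1 control DC cell and 0 blank cells. Cluster 1, which cluster 5 resembled, was kept, so that cut changed almost only the Ndrg2-KO DC side of a comparison. Methods were tested on simulated data. The GFP, tdTomato and hashtag rows and the 3 libraries of cultured DCs were not used here. Python 3.11.15 and SciPy 1.17.1 were used.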

Additional observations from a re-analysis of the deposited data

How the results depend on the processing

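With 1 library per treatment and mice that cannot be separated, these values hold counting error alone, and a difference between libraries cannot be told apart from one between treatments. No paired analysis was possible because each group is 1 library. Of 193 named gene ratios past 2-fold, 122 stayed past it in the same direction under all alternatives. The exceptions that turned direction were Rgs5, which went to 4.85 against control DCs in the Ndrg2-KO DC wound and to 3.61 in the blank wound without the highest doublet scores and to 0.17 in the blank wound without cells with markers of other types, and, in the blank wound without the highest doublet scores, S100a8 (-0.17), Hba-a1 (-0.48), Hba-a2 (-0.66) and Hbb-bs (-0.066).

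At 2% of UMIs in the rule genes the control DC share of fibroblasts was 20.2%. With at least 50 UMIs per gene, 395 genes were 2-fold higher and 171 lower in the Ndrg2-KO DC against the control DC fibroblasts, 201 and 106 in the blank against the control DC, and 204 and 151 in the Ndrg2-KO DC against the blank. With at least 500 UMIs the counts were 79 higher in the first comparison, 26 and 18 in the second and 49 and 28 in the third; fewer or more genes were tested. In the order control DC, Ndrg2-KO DC and blank, the contractile share was 3.04%, 7.02% and 10.9% at 3000 UMIs, 31.3%, 35.1% and 35.3% without drawing, and 15.7%, 25.7% and 28.7% with 2 markers. The interferon share was 13.9%, 26.0% and 21.1%, then 74.8%, 85.7% and 74.3%, then 57.2%, 76.6% and 62.8% under the same settings. The hypoxia and glycolysis share was 7.39%, 17.0% and 11.2%, then 83.3%, 85.5% and 75.5%, then 47.4%, 60.9% and 46.2%. The cycling share without drawing was 5.65%, 16.0% and 10.6%. Without cluster 5 the Ndrg2-KO DC shares were 15.3% contractile, 12.1% cycling and 34.2% hypoxia and glycolysis. The other 171 of 216 alternative values stayed within the interval or within 1.5 times the count. Clustering at resolution 1.0 gave 10 clusters in place of 8, and the cluster filled by the Ndrg2-KO DC library held 131 to 146 of its cells under the clustering settings.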

Other observations

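A few genes of the clock and of the glucocorticoid response are named here after their values were seen, and no list of either was counted. Zbtb16, a transcription factor induced by glucocorticoids, stood at 41.3 CPM in the control DC, 12.8 CPM in the Ndrg2-KO DC and 40.4 CPM in the blank fibroblasts, and Fkbp5, a co-chaperone of the glucocorticoid receptor, at 32.9, 17.3 and 42.2 CPM. Both were lowest in the Ndrg2-KO DC library, as was Tsc22d3, and against control DCs Zbtb16 passed 2-fold (log2 ratio -1.68) and Fkbp5 did not (-0.93). Dbp, an output gene of the circadian clock, was 11.02, 19.6 and 35.6 CPM and Per3 6.71, 9.14 and 12.2 CPM, both lowest in the control DC library, while Arntl was 27.4, 22.5 and 20.97 CPM. Of these 3, Dbp passed 2-fold in the blank against the control DC fibroblasts (1.69), and none did in the Ndrg2-KO DC against the control DC fibroblasts (0.83 for Dbp, 0.45 for Per3 and -0.28 for Arntl). Zbtb16 was also among the leading genes of cluster 1, which held 9 cells of the Ndrg2-KO DC library. The hour at which each wound was explanted is not given in the sources used here.

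Lars2 was read at 1539 CPM in the control DC, 594 CPM in the Ndrg2-KO DC and 1412 CPM in the blank fibroblasts. In cluster 2, where chemokine genes were least often held, it was 2559, 1120 and 3023 CPM in that order.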
